A study of Arabidopsis thaliana with 6 samples.

Results

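The LRR-I receptor kinases of Arabidopsis thaliana were represented by 33 probe sets, of 22746 tested on the array. A list of 43 LRR-I loci was matched by locus, and a probe set was taken where the platform annotation gave it that locus alone. No member had more than 1 such probe set. The remaining 10 loci were not analysed here: IOS1 (AT1G51800), AT1G51870, RHS6 (AT1G51880), AT2G14440, AT2G14510, FRK1 (AT2G19190), MEE39 (AT3G46330), AT3G46420, RHS16 (AT4G29180) and AT5G16900. Measured values played no part in the matching of probe sets to loci. The list itself was chosen with earlier results of these data known.

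Transcripts were measured in whole, light-grown seedlings of the Columbia ecotype, 10 days old, raised on agar-gelled MS medium with sucrose under continuous light. Wild type seedlings were compared with transgenic seedlings that overexpressed the rice cDNA OsTOP6A1, which encodes an A subunit of topoisomerase 6, with 3 arrays of each genotype. The design text calls the 3 samples of a genotype biological replicates. The sources used here do not give the promoter of the transgene, the number of independent lines or whether seedlings were pooled. Whole seedlings mix organs, so fewer cells of a type and less RNA per cell cannot be told apart.

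LRR-I kinases are single-pass membrane proteins with a malectin-like domain and leucine-rich repeats outside the cell and a kinase domain inside it. Many lie next to each other in tandem arrays of closely related genes. FRK1 is widely used as a marker gene of the response to bacterial flagellin, and IOS1 takes part in immune receptor complexes, while the symbiosis receptor kinase of legumes has the same type of ectodomain. For most of the loci below the annotation used here gives no name beyond the locus, and no individual role is stated for them.

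Probe set intensities were the authors' values on a linear scale, and all changes are differences of log2(intensity + 16), transgenic minus wild type, tested with limma over all probe sets at an adjusted p of 0.05. An intensity also depends on the sequence of its probes, so intensities are compared between genotypes and not between genes. Pairs of arrays of the same genotype correlated at 0.991 to 0.995 across probe sets and pairs of different genotypes at 0.975 to 0.978. Array medians lay between 37.5 and 39.3.

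Of the 33 members 3 rose, 2 fell and 28 did not pass. The members called were 15.2% of the 33, beside 16.5% of all probe sets, so their share was near that over all probe sets. The count of 3 members higher was 1 without wild type replicate 1 or 2 or transgenic replicate 2 or 3, and 0 without wild type replicate 3. The count of 2 members lower was 1 without wild type replicate 2 or 3 or transgenic replicate 1 or 3. Higher calls made up 8.18% and lower calls 8.31% of all probe sets. The median log2 change of the members was -0.02, as it was over all probe sets, and their changes ran from -0.67 to 0.50. The median absolute log2 change was 0.14 for the members and 0.13 for all probe sets. An unadjusted p under 0.05 was reached by 10 members (30.3%) and by 30.5% of all probe sets. The genotypes did not overlap for 10 members, 30.3% of the 33, beside 34.9% of all probe sets. The members were dimmer than the array as a whole, and shares by brightness are given below.

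Most members were dim in these seedlings. The mean over the 6 arrays was under 16 for 24 members, 72.7% of them, beside 35.2% of all probe sets, and 20 members stayed under 16 on every array. On a given array 8 to 11 of the 33 members reached 16. The 9 members with a mean of at least 16 were AT1G05700, AT1G07560, AT2G28960 and 6 members of the AT1G51790 to AT1G51910 cluster. Of these 9 members 1 fell and 0 rose, beside 22.3% of all probe sets of that brightness called in either direction. Their log2 changes were negative in 8 of 9 cases with a median of -0.22, where the probe sets of that brightness were negative in 58.7% of cases with a median of -0.05. Without transgenic replicate 1, the lowest transgenic array for 5 of the 9, 6 were negative with a median of -0.13. Without wild type replicate 1 also 6 were negative, with a median of -0.18. The number negative was 7 under quantile normalization, median centring and array weights, and without wild type replicate 3. The median was -0.37 and -0.10 with pseudocounts of 1 and 64. Of the 24 dimmer members 3 rose and 1 fell, beside 5.81% of dim probe sets called in either direction, 3.55% higher and 2.26% lower. An unadjusted p under 0.05 was reached by 7 of the 24 (29.2%), beside 14.1% of dim probe sets. Their genotypes did not overlap for 8 (33.3%), beside 16.4% of dim probe sets. For the 9 brighter members these counts were 3 (33.3%) and 2 (22.2%), beside 39.5% and 44.9% of probe sets of that brightness. For the 4 dim members called the size of the log2 change depended on the pseudocount, and with pseudocounts of 1 and 64 it was -1.56 and -0.13 for AT1G51840, 1.94 and 0.11 for AT2G28990, 1.52 and 0.08 for AT3G46400 and 1.48 and 0.17 for AT5G59680. The split by brightness was made after values had been seen and was not tested.

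**Figure D1:**
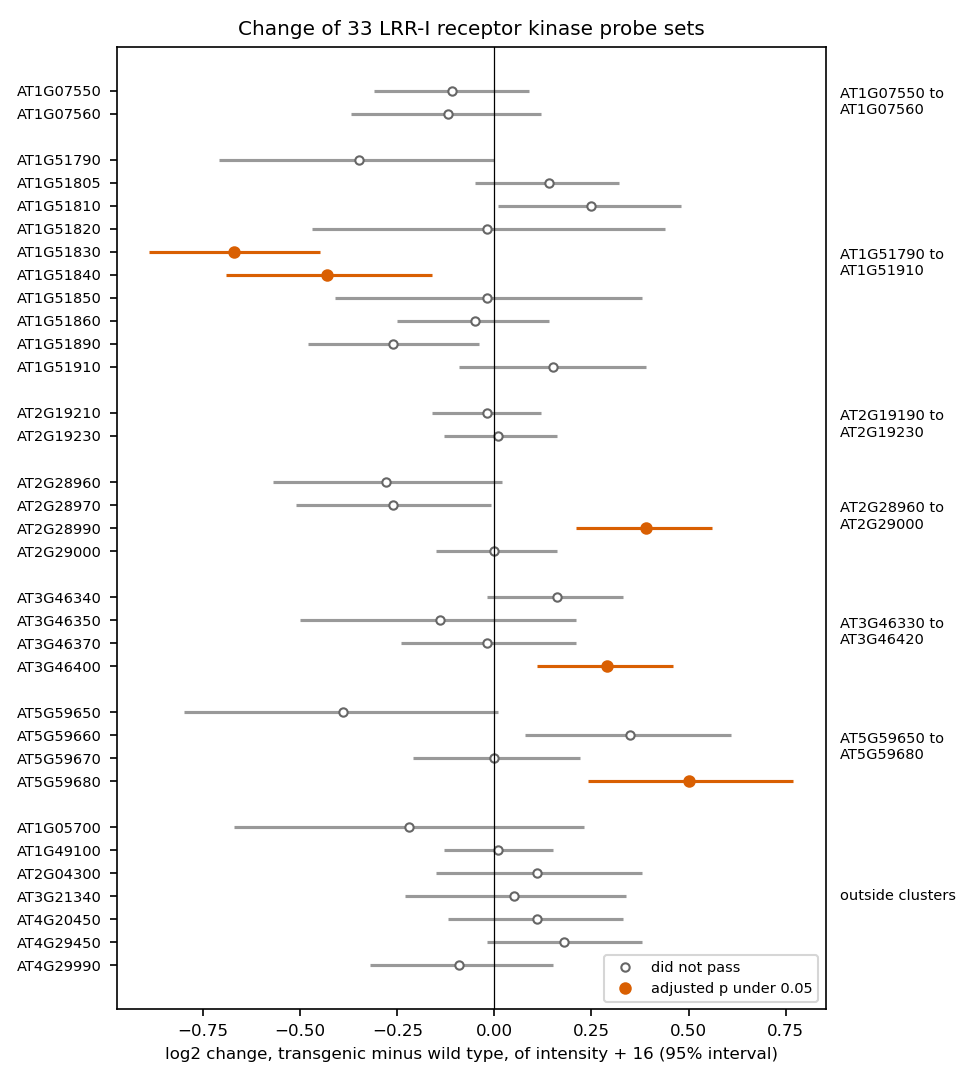
Log2 change of each of the 33 members (horizontal axis, transgenic minus wild type, of intensity + 16) with its 95% interval, grouped by tandem cluster; orange marks an adjusted p under 0.05. The 2 falls, AT1G51830 and AT1G51840, are adjacent entries of the AT1G51790 to AT1G51910 cluster, and the 3 rises lie in 3 other clusters.

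The listed loci formed 7 tandem clusters, defined as runs of loci whose numbers differ by at most 100 from each locus to the next, and 9 loci outside them. The largest cluster, AT1G51790 to AT1G51910 on chromosome 1, held 13 listed loci, of which 10 were measured. In it 2 members fell, 0 rose and 8 did not pass, beside 8.31% of all probe sets lower and 16.5% called in either direction, and the median log2 change was -0.04.

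AT1G51830 had intensities of 74.8, 73.2 and 82.6 on the wild type arrays and 35.5, 44.0 and 48.2 on the transgenic arrays. Every wild type array lay above every transgenic array. The means were 76.9 ± 5.03 and 42.6 ± 6.47 (SD, n = 3 each), a ratio of 1.81, and AT1G51830 fell by 0.67 on the log2 scale (SE 0.10, 95% interval -0.89 to -0.45, limma adjusted p = 0.00377). Of the members called it was the only one with an intensity above 16 on all 6 arrays, and the only one that kept its call in all of its 16 alternative settings. Its log2 change ranged there from -0.85 to -0.40, and its highest limma adjusted p was 0.0422, without variance moderation.

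AT1G51840, the next listed locus, had intensities of 7.9, 11.7 and 9.9 in wild type and 3.3, 6.0 and 0.6 in transgenic seedlings. The genotypes did not overlap, but all 6 values lay under 16. AT1G51840 fell by 0.43 on the log2 scale (SE 0.11, limma adjusted p = 0.0404). The call ended when wild type replicate 2 (limma adjusted p = 0.123) or 3 (0.109) was left out, and likewise for transgenic replicate 1 (0.093) or 3 (0.102). It also ended with a pseudocount of 1 (0.148), with a pseudocount of 64 (0.0642) and without variance moderation (0.147).

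**Figure D2:**
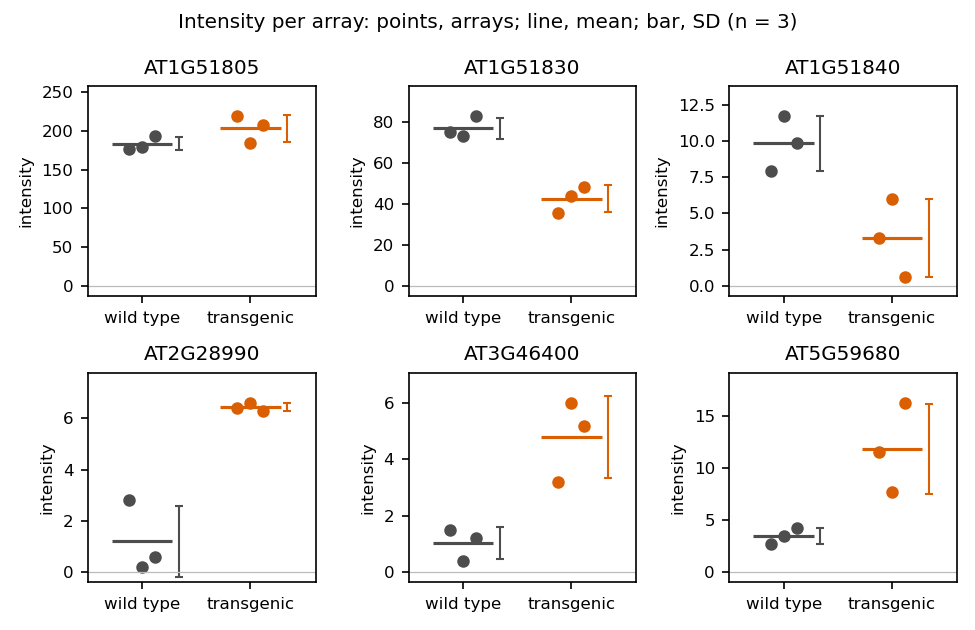
Intensity (vertical axis, linear, different in each panel) on the 3 wild type and 3 transgenic arrays for the 5 members called and for AT1G51805; points are arrays, lines means and bars the SD. The genotypes do not overlap in the 5 called members, of which only AT1G51830 lies above 16 on every array.

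AT1G51805, the only member with a mean of at least 100 in a genotype, had intensities of 177.1, 179.6 and 193.0 in wild type and 218.6, 184.6 and 207.4 in transgenic seedlings. Transgenic replicate 2 lay within the wild type range. The log2 change was 0.14 (95% interval -0.05 to 0.32, limma adjusted p = 0.298), so a change of more than 0.32 upward or 0.05 downward lay outside the interval.

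AT1G51850 gave 68.0, 45.5 and 60.7 in wild type and 42.2, 71.7 and 59.2 in transgenic seedlings. The genotypes overlapped, with a log2 change of -0.02 and a 95% interval of -0.41 to 0.38, an interval that would hold a change in either direction. AT1G51790 gave 48.6, 42.2 and 56.1 against 24.3, 43.4 and 38.2. Its log2 change of -0.35 did not pass (limma adjusted p = 0.161) and was -0.19 without transgenic replicate 1, and transgenic replicate 2 lay inside the wild type range.

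AT1G51890 had intensities of 26.9, 20.0 and 20.8 in wild type and 18.9, 14.2 and 15.3 in transgenic seedlings. Although these did not overlap, the log2 change of -0.26 did not pass (limma adjusted p = 0.104). AT1G51860 had means of 21.9 ± 3.44 and 20.4 ± 1.15 (SD, n = 3 each) and a log2 change of -0.05. AT1G51820 gave 27.1 on wild type replicate 1 but 9.0 and 10.7 on the other wild type arrays, and 17.0, 13.5 and 12.6 in transgenic seedlings. That spread left a log2 change of -0.02 with a 95% interval of -0.47 to 0.44.

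AT1G51810 was at 0.5, 0.5 and 0.4 in wild type and at 0.8, 4.4 and 5.7 in transgenic seedlings. The genotypes did not overlap, yet all values were under 6 and transgenic replicate 1 was close to the wild type arrays. Its log2 change of 0.25 did not pass (limma adjusted p = 0.144) and passed without transgenic replicate 1 (limma adjusted p = 0.0245, log2 change 0.35). AT1G51910 had means of 7.47 ± 1.27 and 10.2 ± 3.31 (SD, n = 3 each) and did not pass.

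The change of AT1G51830 was set against the 5 other members of its cluster with a mean of at least 16, array by array. The difference of log2 changes, AT1G51830 minus the other member, was -0.81 for AT1G51805, -0.65 for AT1G51850, -0.61 for AT1G51860, -0.41 for AT1G51890 and -0.32 for AT1G51790. In all 5 cases the within-array difference did not overlap between the genotypes. The 5 cases share the AT1G51830 values, which did not overlap on their own, so they are not independent. AT1G51830 was picked for this because of its change, so no test is given. How far probes of 1 tandem copy also bind transcripts of another was not analysed here, and none of the 33 probe sets carried a suffix that marks shared probes.

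**Figure D3:**
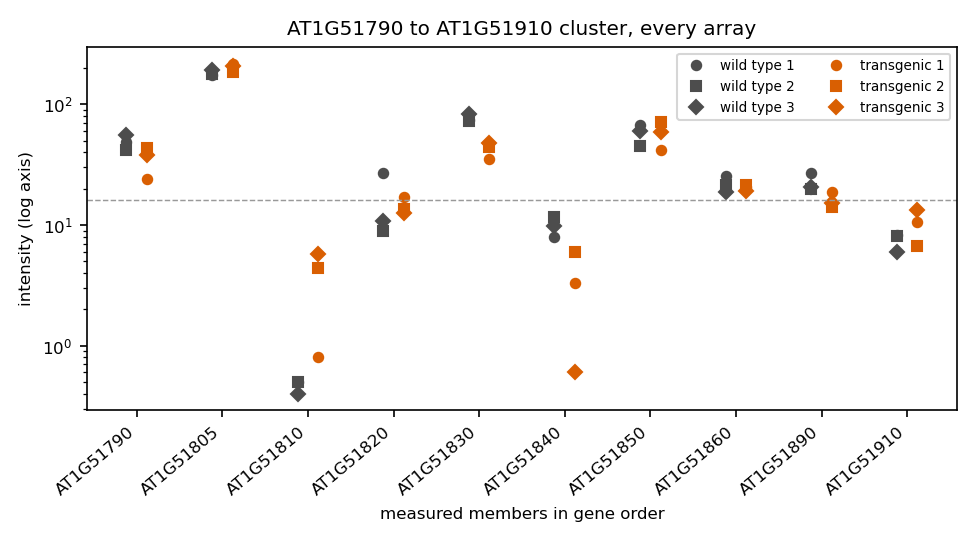
Intensity on a log axis for the 10 measured members of the AT1G51790 to AT1G51910 cluster in gene order, with a symbol for each array (grey wild type, orange transgenic; equal values overlie each other) and a dashed line at 16. AT1G51830, AT1G51840 and AT1G51890 are separated downward in transgenic seedlings, of which AT1G51890 did not pass, AT1G51810 is separated upward at intensities under 6, and AT1G51805 and AT1G51850 overlap.

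In the AT2G28960 to AT2G29000 cluster all 4 listed loci were measured, of which 1 rose and 3 did not pass. AT2G28990 had intensities of 2.8, 0.2 and 0.6 in wild type and 6.4, 6.6 and 6.3 in transgenic seedlings. The transgenic arrays were close together and above all wild type arrays, at a level where 5.81% of dim probe sets were called. AT2G28990 rose by 0.39 on the log2 scale (SE 0.08, limma adjusted p = 0.0136). The call ended narrowly without wild type replicate 3 (limma adjusted p = 0.053), without transgenic replicate 2 (0.051), with a pseudocount of 1 (0.0517) and without variance moderation (0.0511). It was kept as narrowly without wild type replicate 2 (limma adjusted p = 0.0499) and without transgenic replicate 3 (0.0489).

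The other members of that cluster did not pass. AT2G28960 gave 19.3, 22.2 and 28.6 in wild type and 11.5, 18.9 and 19.3 in transgenic seedlings, with a log2 change of -0.28 that did not pass (limma adjusted p = 0.189). It was -0.18 without wild type replicate 3 and -0.16 without transgenic replicate 1. AT2G28970 had a log2 change of -0.26 (limma adjusted p = 0.155), and AT2G29000, at 2.1 or less on every array, one of 0.00. Whether AT2G28990 differed in its change from its neighbours in the cluster was not tested.

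In the AT3G46330 to AT3G46420 cluster 4 of 6 listed loci were measured, all under 16 on every array. AT3G46400 had intensities of 1.5, 0.4 and 1.2 in wild type and 3.2, 6.0 and 5.2 in transgenic seedlings. It rose by 0.29 on the log2 scale (SE 0.07, limma adjusted p = 0.0392), with no overlap between the genotypes. Of the single arrays left out in turn, only the omission of transgenic replicate 1 kept the call. Without wild type replicates 1, 2 and 3 and transgenic replicates 2 and 3 the limma adjusted p was 0.0591, 0.115, 0.0946, 0.121 and 0.117. It was also lost under quantile normalization (0.0544), with a pseudocount of 64 (0.103), without variance moderation (0.0845) and when replicate numbers entered the fit as a block (0.0705).

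AT3G46340 lay at 4.8, 4.4 and 4.3 in wild type and 4.9, 7.9 and 8.0 in transgenic seedlings, which did not overlap and did not pass (limma adjusted p = 0.206). AT3G46350 and AT3G46370 had log2 changes of -0.14 and -0.02, and their genotypes overlapped.

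In the AT5G59650 to AT5G59680 cluster all 4 loci were measured, all with means under 16. AT5G59680 had intensities of 2.7, 3.5 and 4.3 in wild type and 11.6, 7.7 and 16.3 in transgenic seedlings. The lowest transgenic array lay above the highest wild type array. AT5G59680 rose by 0.50 on the log2 scale (SE 0.11, limma adjusted p = 0.0225). Its call held without transgenic replicate 2 and ended without each of the other arrays. Without wild type replicates 1, 2 and 3 and transgenic replicates 1 and 3 the limma adjusted p was 0.0608, 0.0697, 0.0587, 0.0627 and 0.0530, and without variance moderation it was 0.113.

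AT5G59660, in the same cluster, lay at 0.7, 5.0 and 4.0 in wild type and 8.4, 10.9 and 5.9 in transgenic seedlings. These did not overlap, and the log2 change of 0.35 did not pass (limma adjusted p = 0.0798). AT5G59650 had values in the other direction, with 16.7, 8.9 and 21.5 against 3.6, 9.4 and 11.1 and a log2 change of -0.39 (limma adjusted p = 0.176), or -0.25 without transgenic replicate 1. AT5G59670 had a log2 change of 0.00 and stayed under 5 on every array. Members of this cluster therefore had values on both sides of 0, and only AT5G59680 passed.

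In the remaining clusters no member passed. AT1G07550 and AT1G07560 had log2 changes of -0.11 and -0.12, with means of 5.23 and 20.9 in wild type and 3.73 and 17.7 in transgenic seedlings. AT2G19210 and AT2G19230, the measured loci beside FRK1, were at 1.6 or less on every array in both genotypes, with log2 changes of -0.02 and 0.01. Neither locus of the AT2G14440 to AT2G14510 cluster was analysed here.

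Of the 9 loci outside clusters 7 were measured and 0 passed in limma, with 0 at an unadjusted p under 0.05. The shares over all probe sets were 16.5% and 30.5%. The mean was under 16 for 6 of the 7. Of probe sets that dim 5.81% were called and 14.1% reached an unadjusted p under 0.05. AT1G05700 gave 30.3, 34.9 and 35.7 in wild type and 14.2, 32.9 and 36.3 in transgenic seedlings. Transgenic replicate 1 stood apart from its group, and the log2 change was -0.22 with all arrays, 0.03 without it and -0.37 without transgenic replicate 3. AT4G29450 lay at 0.6, 0.9 and 0.6 in wild type and 5.2, 2.4 and 1.3 in transgenic seedlings, which did not overlap and did not pass (limma adjusted p = 0.212). AT1G49100, AT2G04300, AT3G21340, AT4G20450 and AT4G29990 had log2 changes between -0.09 and 0.11.

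The members also differed between arrays of the same genotype. Transgenic replicate 1 was the lowest transgenic array for 16 of the 33 members (48.5%), beside 32.0% of all probe sets. Transgenic replicate 2 was the highest for 16 members, beside 30.2% of all probe sets. Among the 9 members with a mean of at least 16, transgenic replicate 1 was the lowest of its group for 5, including AT1G51790, AT1G51830 and AT1G51850. Without that array AT1G51830 had a log2 change of -0.58 (limma adjusted p = 0.00829).

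**Figure D4:**
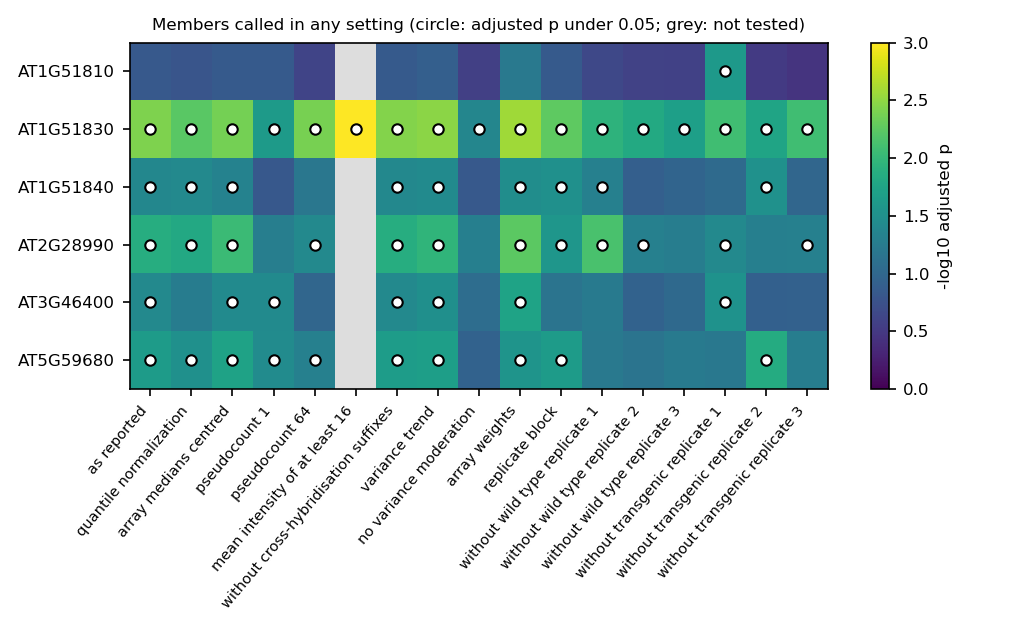
Negative log10 of the limma adjusted p (colour) for the 6 members called in any setting, as reported and under 16 alternatives; circles mark an adjusted p under 0.05 and grey a setting in which the member was too dim to be tested. AT1G51830 is called throughout, AT1G51810 only without transgenic replicate 1, and the other 4 lose their calls in 4 to 9 settings.

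Genes near the members were examined for changes that would cover a whole stretch of the chromosome. All genes within a cluster, or within 5 genes on either side of a cluster or of a listed locus outside clusters, were counted in the RefSeq gene order of assembly TAIR10.1. Of 191 such genes 73 had a probe set annotated to that locus alone. Of these, 6 rose and 5 fell, 15.1% of the 73 beside 16.5% of all probe sets. The annotation did not list 8730 probe sets, so a gene without a match may still have one on the array. Around the 4 clusters that held a called member 15 neighbours were measured and 0 passed in limma, beside 16.5% of all probe sets. The mean was under 16 for 11 of the 15, and 5.81% of probe sets that dim were called. So few and mostly dim neighbours cannot show whether a change covered a whole stretch. An unadjusted p under 0.05 was reached by 2 of the 15, beside 30.5% of all probe sets and 14.1% of those with a mean under 16. These 2 were AT1G51920, which lies beyond AT1G51910, with a log2 change of -0.69 (limma adjusted p = 0.0639), and AT5G59700, a CrRLK1L kinase gene, with one of -0.26 (limma adjusted p = 0.0763). AT1G51920 had intensities of 33.7, 13.3 and 12.1 in wild type and 7.8, 4.4 and 4.0 in transgenic seedlings, without overlap.

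The neighbours with the largest log2 changes at the pseudocount of 16, AT2G14460 and AT4G20480, lay beside members that did not pass or were not measured. AT2G14460, between AT2G14440 and AT2G14510, was at 0.8, 0.7 and 2.6 in wild type and 131.2, 153.7 and 135.2 in transgenic seedlings, a log2 rise of 3.17 with the pseudocount of 16 (SE 0.08, limma adjusted p = 1.5e-06). That size depended on the pseudocount, with 5.98 and 1.64 at pseudocounts of 1 and 64. Every transgenic array lay far above the wild type arrays. AT4G20480, the third gene beyond AT4G20450, was at 24.3, 25.5 and 24.9 in wild type and 159.7, 188.8 and 188.3 in transgenic seedlings, a rise of 2.25 on the log2 scale (SE 0.08, limma adjusted p = 5.93e-06). AT4G20450 itself had a log2 change of 0.11 (limma adjusted p = 0.508). Near AT1G05700, AT1G05710 rose by 0.71 and AT1G05720 fell by 0.45. MED6 (AT3G21350), a subunit of the Mediator complex next to AT3G21340, rose by 0.29.

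The other neighbours called had smaller changes. Around AT4G29990, AT4G29950 and AT4G29960 rose by 0.45 and 0.36. Around AT4G29450, AT4G29420 and AT4G29490 fell by 0.36 and 0.25, and before AT5G16900, AT5G16870 and AT5G16880 fell by 0.26 and 0.38. The count of 11 neighbours was 5 to 10 without single arrays, with 6 without wild type replicate 2, wild type replicate 3 or transgenic replicate 2 and 5 without transgenic replicate 3.

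**Figure D5:**
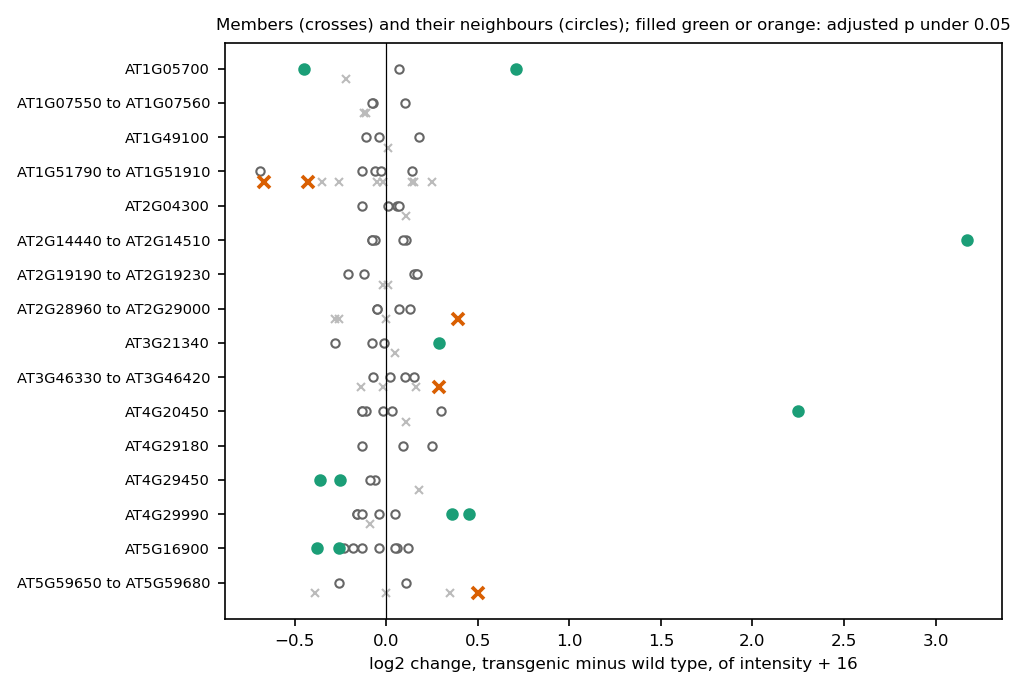
Log2 change (horizontal axis, transgenic minus wild type, of intensity + 16) of measured neighbours (circles) and members (crosses) for each cluster or locus; filled green circles and orange crosses passed an adjusted p of 0.05, open circles and grey crosses did not. The rows with an orange cross hold no filled circle, but only 15 neighbours were measured there, 11 of them with means under 16. The largest values at this pseudocount, 3.17 and 2.25, belong to neighbours.

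Related genes gave a comparison. A gene counted as measured only where the annotation gave a probe set that locus alone. Unmatched genes may still have a probe set among the 8730 not listed. The CrRLK1L kinases carry malectin-like domains on a different receptor type and include FERONIA (FER, AT3G51550), which senses cell wall state and binds RALF peptides. Of 17 listed, 12 were measured, and 1 rose, 0 fell and 11 did not pass, beside 16.5% of all probe sets called, with a median log2 change of 0.08. Log2 changes were negative for 5 of the 12, the lowest being -0.27 for AT2G23200. An unadjusted p under 0.05 was reached by 5 (41.7%), beside 30.5% of all probe sets. The genotypes did not overlap for 5, FER among them, beside 34.9% of all probe sets. The rise was AT5G39030, from 0.8, 0.7 and 0.3 to 9.7, 4.6 and 3.6 (log2 change 0.39, limma adjusted p = 0.0425). That call ended without wild type replicates 1, 2 and 3 and transgenic replicates 1 and 2, taken singly. FER had means of 438 ± 32.0 and 503 ± 10.5 (SD, n = 3 each) and did not pass (limma adjusted p = 0.116). THE1 (AT5G54380), a wall integrity receptor, had a log2 change of 0.16 that did not pass either.

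Of 12 LRR-VIII-2 kinases, which carry a malectin domain beside their repeats, 4 were measured and 0 passed in limma, with 1 at an unadjusted p under 0.05, beside 16.5% and 30.5% of all probe sets. This was AT1G53430, with means of 168 ± 19.1 and 142 ± 7.67 (SD, n = 3 each, limma adjusted p = 0.154). Of 54 genes of immune signalling 5 were measured and 0 passed in limma, with 2 at an unadjusted p under 0.05, beside 16.5% and 30.5% of all probe sets. EFR (AT5G20480), the receptor for bacterial elongation factor Tu, had means of 15.3 ± 1.79 and 19.7 ± 1.89, and BIK1 (AT2G39660), a kinase downstream of such receptors, of 130 ± 13.5 and 121 ± 5.72 (SD, n = 3 each). WRKY53 and SAG101, a transcription factor and a partner of EDS1 in immune signalling, had log2 changes of 0.08 and -0.27. AT2G17740 had means of 25.2 ± 13.1 and 9.13 ± 1.63 (SD, n = 3 each), without overlap, and missed the threshold (log2 change -0.67, limma adjusted p = 0.055). It was called under quantile normalization, median centring, array weights, the filter on dim probe sets and without wild type replicate 1, where its log2 change was -0.42.

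Of 20 root hair genes 5 were measured, and 1 rose, beside 8.18% of all probe sets. AT1G30870 had intensities of 61.5, 64.1 and 60.8 in wild type and 95.2, 103.9 and 125.1 in transgenic seedlings, and rose by 0.66 (SE 0.09, limma adjusted p = 0.0039). The root hair expansins EXPA7 (AT1G12560) and EXPA18 (AT1G62980) were at 18.2 to 26.4 and 34.1 to 40.9 over all arrays. Neither passed, with log2 changes of 0.04 and 0.06. GH9C1 (AT1G48930) had a log2 change of -0.12, and AT2G14760, at 1.0 or less on every array, one of 0.03, and neither of these passed.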

How the data were processed

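The authors deposited 1 linear intensity for each probe set and array. The array is an Affymetrix design and labelling used biotinylated cRNA, per the labels' protocols. Which software and scaling gave them is not given in the sources used here. Each array's mean was 100 after trimming 2% at each end, so no further normalization was applied. Of 22810 probe sets, 64 controls were left out. Names came from the platform annotation (13513 probe sets with 1 gene, 503 with several, 8730 not listed), updated by gene identifier through RefSeq (TAIR10.1; 13436 found). The files name no genome build, so no coordinates are given.

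Values were analysed as log2(intensity + 16) with limma 3.58.1 in R 4.3.3, both genotypes in the same fit, Benjamini-Hochberg over 22746 probe sets. The fit was checked on simulated data, with changes placed only in probe sets above about 16 in wild type. That check does not cover changes in dimmer probe sets. The number of arrays limits precision. Where nothing says that samples came from separate cultures, p-values measure only the spread between these samples.

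Every measured member was named. Full values were given for members called, for those with a mean of at least 100 in a genotype and, beyond that rule and after values were seen, for others. Genes of other lists and neighbours were named where they passed, the others after values were seen. Members, lists and tests were chosen with earlier results of these data known. Related lists used the brightest probe set of a gene. Gene order came from RefSeq; no sequences were used.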

Additional observations from a re-analysis of the deposited data

How the results depend on the processing

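Alternatives were quantile normalization, median centring, pseudocounts of 1 and 64, a mean intensity of at least 16, removal of probe sets with a cross-hybridisation suffix, a variance trend, no variance moderation, array weights, a replicate block and omission of each array in turn. For the neighbours, AT2G17740 and the median of the brighter members they were added after seeing the data. The count of members higher was 3. It was 0 with the filter on dim probe sets and without variance moderation, and 0 to 3 without single arrays. The filter removed all 3 before testing. The count of members lower was 2. It was 1 with pseudocounts of 1 and 64, with the filter and without variance moderation, and 1 to 2 without single arrays. The filter removed AT1G51840, with a mean of 6.57, before testing. The immune signalling count rose from 0 to 1 under quantile normalization, median centring, the filter and array weights, and was 0 to 1 without single arrays. The CrRLK1L count of 1 was 0 with a pseudocount of 64, the filter and no variance moderation, and 0 to 1 without single arrays. AT5G39030, with a mean of 3.28, was likewise removed by the filter before testing. The neighbour count of 11 was 5 with a pseudocount of 1 and without variance moderation, and 5 to 10 without single arrays. The cause of the other differences was not tested. The LRR-VIII-2 and root hair counts stayed at 0 and 1 in every setting run.

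With the replicate block 2 members were higher and 2 lower, AT3G46400 being lost (limma adjusted p = 0.0705). Samples of the same number correlated in their deviations at 0.191, 0.057 and 0.113, and samples of different numbers at -0.159 to 0.082. Each wild type replicate correlated best with the transgenic replicate of its own number. Transgenic replicate 2, however, correlated best with wild type replicate 3 (0.082). Whether the numbers pair the samples cannot be told from these values.

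Of 504 member values under alternatives, 26 lost a call, 1 gained a call and 31 turned sign, none of the last with a call in either fit. Without single arrays the ranges of members whose sign turned were -0.37 to 0.03 for AT1G05700, -0.00 to 0.03 for AT1G49100, -0.16 to 0.23 for AT1G51820, -0.15 to 0.14 for AT1G51850, -0.11 to 0.01 for AT1G51860, -0.01 to 0.04 for AT2G19230, -0.04 to 0.04 for AT2G29000, -0.03 to 0.16 for AT3G21340, -0.09 to 0.06 for AT3G46370 and -0.09 to 0.06 for AT5G59670. In other settings AT1G51820 had 0.00 (median centring), 0.04 (pseudocount 1) and 0.06 (array weights), and AT1G51850 had 0.01 (quantile), 0.00 (median centring) and 0.08 (array weights). AT2G29000 had -0.01 (quantile), -0.06 (pseudocount 1) and -0.01 (array weights), AT3G21340 had -0.01 (array weights), and AT5G59670 had -0.01 (quantile) and -0.16 (pseudocount 1). Low signal limits 24 of the 33 members, whose means were under 16.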
